A study of Mus musculus with 30 samples.

Results

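Frontal cortex collected 12 h after lipopolysaccharide (LPS) was compared with frontal cortex of saline-injected mice across all genes of the deposited count table. The comparison holds 7 of the 30 libraries of the series, chosen by their labels: 4 labelled LPS 12 h (mice A258, A259, A260 and A261) and 3 labelled saline (mice A223, A224 and A226). Of 48820 genes listed, 17111 were tested, 20344 had no counts in these 7 libraries, and 11365 had counts but were too low to be tested.

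The mice were wild-type C57BL/6J males of 8 to 12 weeks, housed alone, in a model of the stress and toxicant exposure behind Gulf War Illness. Corticosterone (CORT), the main glucocorticoid of rodents, was put into their drinking water at 200 mg/L with 0.6% ethanol as the carrier for an initial course of 7 days. Diisopropyl fluorophosphate (DFP), an organophosphate that blocks acetylcholinesterase, followed on day 8 as 1 intraperitoneal dose of 4 mg/kg, and the CORT course was then repeated every other week until week 5. LPS mice then received 0.5 mg/kg under the skin and tissue was taken 12 h later, and saline mice gave tissue 6 h after their injection. Every mouse, saline mice included, carried the CORT and DFP history, and no group without it was analysed here. Because saline tissue was taken at 6 h and LPS tissue at 12 h, LPS and the hour of collection cannot be told apart. Each library is labelled as a separate mouse.

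LPS is a component of the outer membrane of Gram-negative bacteria. It is sensed by CD14 and the receptor TLR4, which start NF-kB signalling and, through TRIF and IRF3, the production of type I interferon. Given outside the brain it reaches the brain largely through endothelium, perivascular macrophages, circulating cytokines and nerves; endothelial cells then display adhesion molecules, microglia and astrocytes change their gene expression, and neutrophils may enter the vessels. Interferon-stimulated genes are switched on through the ISRE, a promoter element bound by IRF9 with its partners or by other IRFs, and many guanylate-binding protein genes also through another element, the GAS. Glucocorticoids act through the glucocorticoid receptor and oppose much of this response.

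Promoters of genes whose RNA was higher after LPS show these elements in letters. The 4 sequences that follow come from interferon-responsive genes, and the capitals mark matches on either strand to the ISRE core GAAANNGAAA. They are RefSeq promoters, from 250 bases before to 50 after the start of the gene, written 5′ to 3′ along the gene's own strand, on GRCm38.p6.
Isg15, chr4:156200769-156201068, minus strand, 3 overlapping matches: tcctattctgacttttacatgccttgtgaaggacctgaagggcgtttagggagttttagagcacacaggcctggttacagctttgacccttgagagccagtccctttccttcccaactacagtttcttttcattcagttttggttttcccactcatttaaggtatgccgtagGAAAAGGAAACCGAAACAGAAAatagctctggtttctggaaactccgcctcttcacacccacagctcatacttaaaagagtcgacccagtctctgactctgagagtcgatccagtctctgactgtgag
Ifit1, chr19:34640639-34640938, plus strand, 2 matches: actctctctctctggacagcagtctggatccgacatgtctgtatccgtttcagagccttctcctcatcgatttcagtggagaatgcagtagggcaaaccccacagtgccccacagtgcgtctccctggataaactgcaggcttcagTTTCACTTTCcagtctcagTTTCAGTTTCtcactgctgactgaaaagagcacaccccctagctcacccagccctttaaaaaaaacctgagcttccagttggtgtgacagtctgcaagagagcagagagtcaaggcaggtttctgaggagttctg
Gbp5, chr3:142496684-142496983, plus strand, 1 match: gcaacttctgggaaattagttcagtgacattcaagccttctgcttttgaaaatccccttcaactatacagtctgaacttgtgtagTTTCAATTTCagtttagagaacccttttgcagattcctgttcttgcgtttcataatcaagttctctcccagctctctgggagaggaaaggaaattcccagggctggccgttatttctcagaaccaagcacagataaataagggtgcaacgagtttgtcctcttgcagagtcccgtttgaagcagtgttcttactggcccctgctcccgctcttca
Cxcl10, chr5:92348840-92349139, minus strand, 1 match: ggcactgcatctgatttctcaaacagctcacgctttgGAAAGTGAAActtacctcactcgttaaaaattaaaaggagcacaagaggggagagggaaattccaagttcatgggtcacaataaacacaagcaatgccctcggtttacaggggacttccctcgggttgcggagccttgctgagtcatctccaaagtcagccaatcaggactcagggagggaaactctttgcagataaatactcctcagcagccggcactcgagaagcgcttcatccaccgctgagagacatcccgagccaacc
The promoter of the neutrophil chemokine gene Cxcl1 is shown for its NF-kB elements, with capitals marking the 2 matches to GGGNNTTTCC.
Cxcl1, chr5:90890995-90891294, plus strand: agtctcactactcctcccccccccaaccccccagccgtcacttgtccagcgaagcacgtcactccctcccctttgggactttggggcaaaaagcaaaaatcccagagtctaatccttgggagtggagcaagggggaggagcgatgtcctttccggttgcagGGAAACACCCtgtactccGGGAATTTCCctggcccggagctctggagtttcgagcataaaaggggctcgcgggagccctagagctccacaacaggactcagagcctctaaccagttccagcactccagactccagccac

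Of the genes tested, 9586 had a single RefSeq promoter under their symbol, and 442 of these were higher and 294 lower after LPS by the test described further on. The ISRE core lay in 53 of the 442 promoters of higher genes (12.0%), in 10 of the 294 of lower genes (3.4%) and in 293 of all 9586 (3.06%). Among listed genes it lay in 13 of 22 promoters of interferon-stimulated genes and in 8 of 9 of the GBP and IRG families. The GAS letters TTCNNNGAA lay in 8.6% of promoters of higher genes, 3.06% of lower genes and 6.63% of all, and in 6 of the 9 GBP and IRG promoters; the Gbp5 promoter holds 2 of them and 1 NF-kB match besides its ISRE. In the same order, the NF-kB letters lay in 2.71%, 0.34% and 1.58%. The glucocorticoid response element core ACANNNTGT lay in 5.2%, 5.1% and 4.07%, and in 3 of 24 promoters of listed glucocorticoid-responsive genes. The E-box CACGTG of clock factors lay in 7.24%, 7.48% and 9.94%. All motifs were read on both strands. The GAS and the glucocorticoid core can overlap other motifs, the ISRE matches can overlap one another, and a match shows letters, not binding.

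The 7 libraries held 19286134 to 23762726 counts after LPS, against 16826882 to 33034295 after saline. Mitochondrial RNA made up 6.54 to 8.152% after LPS, against 8.329 to 9.642% after saline. Defining markers of cortical excitatory neurons summed to 1542 to 1802 CPM (the usual per-library unit of counts, scaled by TMM) after LPS, against 1607 to 1954 CPM after saline, so the labelled tissue carried its markers. Saline library A224 stood apart through markers of choroid plexus and striatum: Ttr, a choroid plexus transport protein, was at 982 CPM there, against 80.2 and 36.0 CPM in A223 and A226, and at 320, 7.16, 13.4 and 17.7 CPM in LPS A258, A259, A260 and A261. Replicate libraries differed by more than counting noise, and none was counted as a duplicate.

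Of the 4 libraries labelled LPS 12 h, A260 and A261 went against their labels when set beside the hippocampus of the same mice. In hippocampus, 153 genes were higher and 217 lower at 24 h than at 12 h after LPS, of 17289 tested, and 368 of these had a cortical value. Each cortical library's deviation from the mean of the 8 cortical libraries labelled 12 h or 24 h was correlated, across those 368 genes, with the hippocampal change from 12 to 24 h. Pearson's r was -0.785 and -0.768 for A258 and A259, but 0.751 and 0.705 for the libraries labelled LPS 12 h A260 and A261. Among libraries labelled LPS 24 h it was 0.809 and 0.805 for A274 and A275, but -0.77 and -0.876 for A276 and A278. Cortical A260 was most like hippocampal A276 (r = 0.847), A261 like A278 (0.728), A276 like A260 (0.767) and A278 like A261 (0.865), and each of these 4 was unlike the hippocampus of its own mouse label (r from -0.763 to -0.602). The other 4 were most like their own mouse. Over the 13303 genes with a mean above 1 log2 CPM in the fits of both tissues, the closest library was the same in each case. These correlations are across genes, which are not independent, and carry no p.

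**Figure D1:**
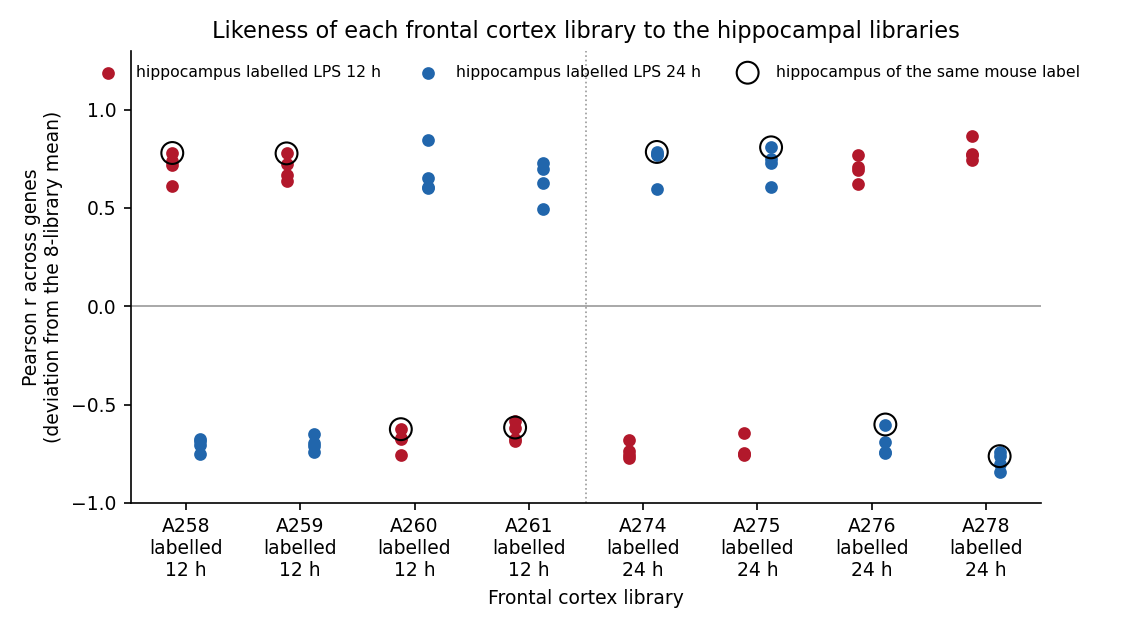
Pearson's r across 368 genes (vertical axis) of each frontal cortex library labelled LPS 12 h or 24 h (horizontal axis) with each hippocampal library labelled LPS 12 h (red) or 24 h (blue), with the hippocampus of the same mouse label ringed. A258, A259, A274 and A275 have positive values with hippocampal libraries of their own time, and A260, A261, A276 and A278 with those of the other time.

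Single genes showed the same split. P2ry12, the purinergic receptor of resting microglia, was at 9.28 and 8.70 CPM in cortical A258 and A259 and at 24.0 and 34.8 CPM in the libraries labelled LPS 12 h A260 and A261; hippocampal values were 7.498 to 11.1 CPM at 12 h and 25.4 to 29.5 CPM at 24 h. Sult1a1, a phenol sulfotransferase, was at 10.4 and 9.75 CPM in A258 and A259 and at 3.71 and 3.17 CPM in A260 and A261, with hippocampal values of 6.46 to 7.84 CPM at 12 h and 2.19 to 3.59 CPM at 24 h. What lies behind this was not tested. No library was moved to another group. All groups are as labelled, and most counts are given again with A260, A261, A276 and A278 left out, which leaves LPS 12 h A258 and A259 against the 3 saline libraries and is called the reduced set below.

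Counts were tested with edgeR's quasi-likelihood model, and a gene is called higher or lower where its Benjamini-Hochberg adjusted p over all 17111 genes is under 0.05. Log2 fold changes are LPS 12 h over saline, ± SE. After LPS 707 genes were higher (4.13% of genes tested) and 512 lower (2.99%), and 307 of the higher and 70 of the lower changed at least 2-fold. The 4 LPS libraries lay all above the 3 saline libraries for 1638 genes and all below for 1406, which is 9.57% and 8.22% of genes tested. Higher genes made up 58% of the calls. In bulk tissue, fewer cells of a type and less RNA per cell cannot be told apart, and neither can more cells and more RNA per cell. Scaling by library totals alone gave 1158 higher and 316 lower, with the median of all genes at 0.09 on the log2 scale in place of 0.01. In the reduced set 462 genes were higher and 273 lower, and 246 of the higher and 76 of the lower changed at least 2-fold. With mouse as a random effect over all 30 libraries 1044 were higher and 949 lower, with tissues paired by mouse label, A260, A261, A276 and A278 included. Leaving out saline A223 gave 465 higher and 302 lower, and leaving out saline A226 gave 448 and 307.

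**Figure D2:**
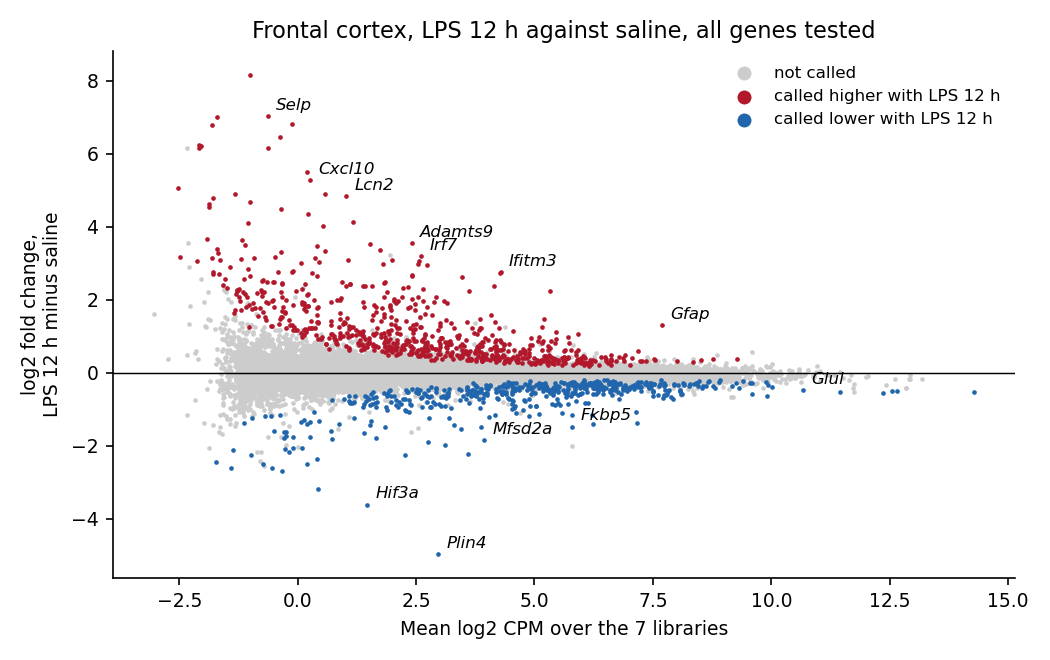
Log2 fold change of LPS 12 h over saline (vertical axis) against mean log2 CPM over the 7 libraries (horizontal axis) for the 17111 genes tested, with the 707 called higher in red and the 512 called lower in blue. Rises reach further than falls, and the largest rises are of genes at low levels.

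The largest rise among genes at a mean of at least 1 log2 CPM was of Lcn2, lipocalin 2, which binds bacterial iron carriers and is made by reactive astrocytes and endothelium (ENSMUSG00000026822.14, chr2:32384633-32388252; gene coordinates here are GRCm38). It stood at 12.3, 9.66, 4.77 and 7.20 CPM in LPS A258, A259, A260 and A261, against 0.452, 0.0607 and 0.313 CPM in saline A223, A224 and A226. All LPS values were above all saline values. The rule for the 15 largest rises and the 15 largest falls required groups that do not overlap. The pooled counts, 771 after LPS and 20 after saline, gave a ratio of 29.4 (exact 95% interval 18.9 to 48.5), and the log2 fold change was 4.84 ± 0.58 (adjusted p 0.000155). Adamts9, a secreted protease of endothelium and pericytes (chr6:92772699-92943492), was at 13.5, 16.6, 19.96 and 9.87 CPM after LPS, against 1.26, 1.52 and 1.13 CPM after saline (3.55 ± 0.30, adjusted p 1.95e-06). Ifitm3, an interferon-induced membrane protein that blocks virus entry, was at 39.9, 41.9, 40.6 and 55.4 CPM after LPS, against 5.73, 6.56 and 7.21 CPM after saline (2.76 ± 0.18, adjusted p 1.08e-07). Ecscr, an endothelial surface protein, averaged 5.31 ± 1.61 CPM after LPS and 0.565 ± 0.275 CPM after saline (SD, n = 4 and 3). The other 11 of the 15 largest rises were Irf7, Gbp4, Gbp5, Gbp2, Iigp1, Tgtp1, Ifit1, Ifit3, Isg15, Oasl2 and Ctla2a, and all but Ctla2a are known interferon targets. Ctla2a, a cysteine protease inhibitor, was at 6.44, 9.03, 45.0 and 14.5 CPM in LPS A258, A259, A260 and A261, against 3.12, 1.88 and 2.23 CPM after saline (2.95 ± 0.65, adjusted p 0.017). Its call was lost without any 1 saline library (up to 0.0907), and it was at 1.66 in the reduced set (adjusted p 0.00106).

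The largest fall was of Plin4, perilipin 4, a lipid droplet coat protein and glucocorticoid target (ENSMUSG00000002831.13, chr17:56100591-56109803). It was at 1.85, 2.50, 1.91 and 0.946 CPM in LPS A258, A259, A260 and A261, against 61.9, 63.9 and 41.7 CPM in saline A223, A224 and A226, with no overlap (-4.96 ± 0.29, adjusted p 1.2e-07). Hif3a, an inhibitory hypoxia-inducible factor subunit (chr7:17031507-17062427), was at 1.27, 0.625, 1.204 and 0.576 CPM after LPS, against 10.3, 12.6 and 11.2 CPM after saline (-3.62 ± 0.24, adjusted p 3.49e-08). Pla2g3, a secreted phospholipase A2, averaged 2.52 ± 1.07 CPM after LPS and 12.0 ± 2.50 CPM after saline (-2.24 ± 0.28). Sult1a1 averaged 6.75 ± 3.84 CPM after LPS and 31.6 ± 7.31 CPM after saline (-2.21 ± 0.45, adjusted p 0.0108), and -1.65 in the reduced set. The other 11 falls ran from -1.91 for Atp10a to -1.37 for Wipf3 and included Mfsd2a, Prom1, Fkbp5, Sgk1, Ddc, F13a1, Arrdc2, Plekhf1 and Fam83d.

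**Figure D3:**
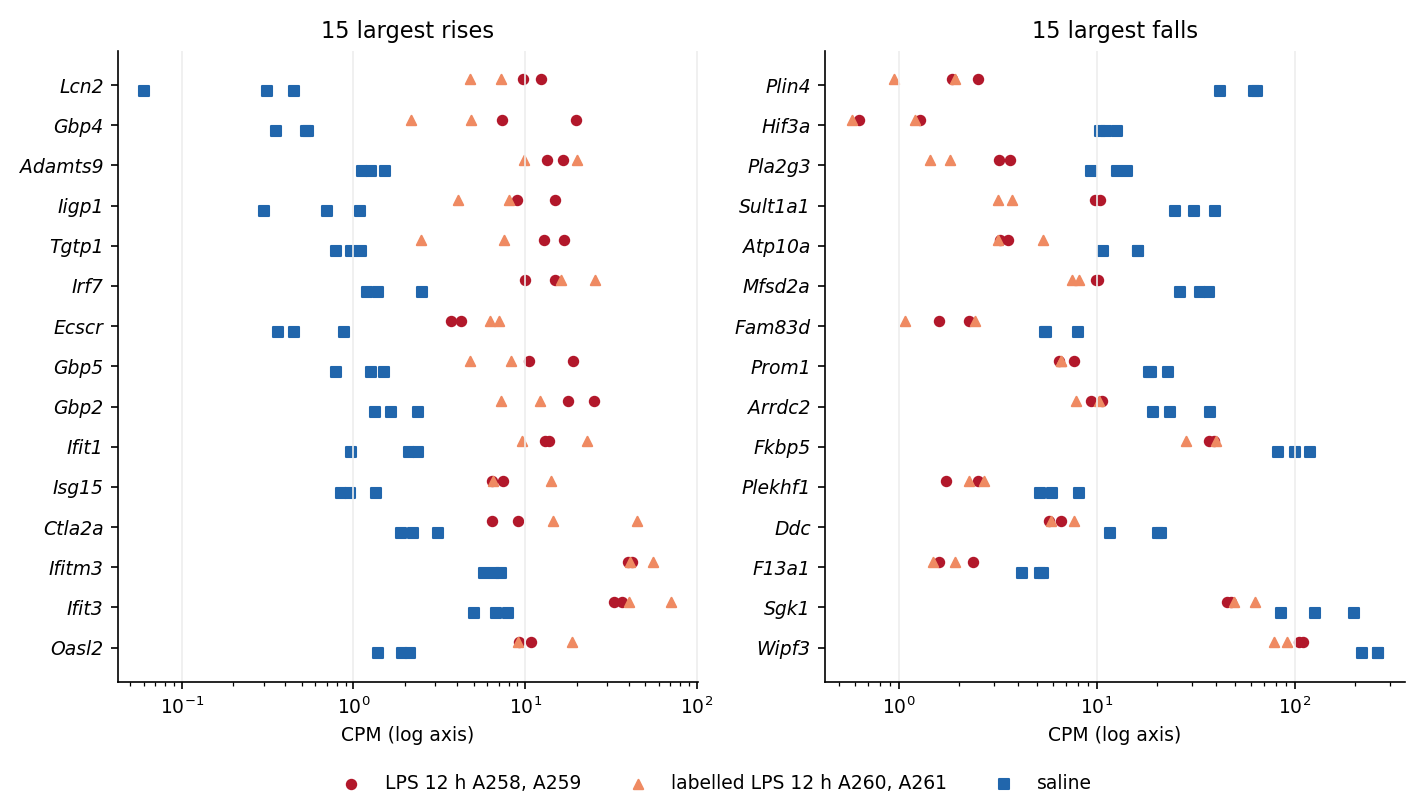
CPM on a log axis in each library for the 15 largest rises (left) and the 15 largest falls (right) among called genes at a mean of at least 1 log2 CPM whose groups do not overlap. LPS 12 h A258 and A259 are circles, the libraries labelled LPS 12 h A260 and A261 triangles and saline libraries squares; Gbp4, Tgtp1 and Sult1a1 have A260 and A261 below A258 and A259.

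Receptors and adaptors of LPS sensing were higher in part. Of 23 tested members of 24 listed, 8 rose and none fell (4 rose in the reduced set), with a median log2 fold change of 0.35, against 0.01 for all genes tested. Casp4, the caspase that binds LPS inside cells, was at 1.68, 2.02, 0.652 and 1.48 CPM after LPS, against 0.352, 0.243 and 0.219 CPM after saline (2.44 ± 0.41, adjusted p 0.000738). Cd14, the co-receptor that hands LPS to TLR4, averaged 5.50 ± 0.453 CPM after LPS and 1.93 ± 0.758 CPM after saline (1.52 ± 0.24, adjusted p 0.000522). Tlr2, the receptor of bacterial lipoproteins, rose by 1.13 ± 0.28, a call lost without saline A223 or A226 (adjusted p up to 0.137). Tlr4 rose by 0.78 ± 0.21 (adjusted p 0.0278), lost without saline A224 or A226 or LPS A261 (up to 0.167) and in the reduced set (0.244). The count itself fell to 3 without saline A223, 5 without A224, 4 without A226 and 4 without LPS A261.

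Cytokine and chemokine genes held some of the widest gaps. Of 20 tested of 26 listed, 10 rose and 1 fell (8 and 1 in the reduced set; median 1.38). Members nearly absent after saline, such as Cxcl1, passed the filter on low counts only through their level in LPS libraries. The count and median of this list are not independent of that filter. Cxcl10, a chemokine for T cells induced by interferon, was at 3.53, 4.13, 3.76 and 7.44 CPM after LPS, against 0.151, 0.0607 and 0.125 CPM after saline; pooled counts of 428 and 8 gave a ratio of 40.8 (20.5 to 95.2) and the fit 5.27 ± 0.47 (adjusted p 1.4e-06). Ccl12, a monocyte chemokine of mice, was at 7.14, 5.53, 4.06 and 5.02 CPM after LPS, against 0.302, 0.121 and 0.125 CPM after saline (4.90 ± 0.45, adjusted p 2.01e-06). Both had every LPS library above every saline library.

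Ccl2, the main monocyte chemokine, averaged 1.26 ± 0.152 CPM after LPS and 0.0440 ± 0.0514 CPM after saline, where it had 3 counts in all (ratio 28.8, interval 9.59 to 142). Its call was lost without saline A226 (adjusted p 0.0684), and the ratio was 61.1 without saline A223. Cxcl1, whose promoter is shown above, had 17 counts after LPS and none after saline, at least 4.33-fold higher against a floor of 3 counts over the saline group (at least 2.30-fold without saline A226); its call was lost without saline A226 (adjusted p 0.0804) and in the reduced set (0.0737). Il1a, interleukin 1 alpha, averaged 2.38 ± 0.888 CPM after LPS and 0.405 ± 0.308 CPM after saline (2.43 ± 0.37, adjusted p 0.000338). Il1b, the secreted interleukin 1 beta, was at 3.24, 1.87, 2.36 and 0.699 CPM after LPS, against 0.603, 0.304 and 0.345 CPM after saline, and passed the threshold narrowly (2.29 ± 0.65, adjusted p 0.0489; up to 0.236 with 1 library left out, lost without any of the 3 saline libraries or LPS A258, A259 or A260). Tnf had 23 counts after LPS and 2 after saline and was not called (ratio 8.78, interval 2.17 to 76.8; adjusted p 0.129), though it was in the reduced set (3.59, adjusted p 0.00515).

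Some downstream signalling genes were also higher. Of 30 cytokine receptor and STAT pathway genes 14 rose and 1 fell (13 and 0 in the reduced set, 9 rose without saline A226; median 0.46), and of 21 tested of 26 listed genes of NF-kB feedback and the acute phase 7 rose and none fell (7 in the reduced set; median 0.46). Socs3, the feedback inhibitor of STAT3 signalling, was at 18.7, 12.8, 14.3 and 10.3 CPM after LPS, against 3.87, 3.52 and 2.73 CPM after saline (2.08 ± 0.32, adjusted p 0.00106). Osmr, the oncostatin M receptor, averaged 9.70 ± 2.83 CPM after LPS and 2.61 ± 0.0575 CPM after saline (1.89 ± 0.28), and Il4ra, the interleukin 4 receptor chain, 18.02 ± 2.04 CPM after LPS and 6.89 ± 0.426 CPM after saline (1.38 ± 0.17). Bcl3, a nuclear IkB-like protein, averaged 3.34 ± 0.942 CPM after LPS and 0.305 ± 0.128 CPM after saline (ratio 11.4, interval 7.26 to 19.0). Saa3, serum amyloid A3, had 66 counts after LPS and none after saline, at least 16.8-fold higher (at least 8.95-fold without saline A226). Icam1, the adhesion molecule bound by leukocyte integrins, averaged 6.09 ± 1.33 CPM after LPS and 2.13 ± 0.336 CPM after saline (1.52 ± 0.27, adjusted p 0.00136).

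Nearly all listed interferon-stimulated genes were higher. All 36 listed were tested and 31 rose, none fell (25 in the reduced set), with a median log2 fold change of 2.09. Isg15, a ubiquitin-like protein joined to other proteins, was at 6.44, 7.40, 6.47 and 14.1 CPM after LPS, against 0.955, 0.850 and 1.35 CPM after saline (2.98 ± 0.36, adjusted p 6.18e-05). Ifit1, which binds viral RNA, was at 13.1, 13.8, 9.58 and 22.9 CPM after LPS, against 2.36, 0.971 and 2.10 CPM after saline (2.99 ± 0.31, adjusted p 1.77e-05). In both genes the library labelled LPS 12 h A261 was the highest, and every LPS value was above every saline value. Both are among the largest rises, for which that was a condition.

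Among regulators and sensors of the interferon system, Irf7, the transcription factor that amplifies type I interferon, was at 9.93, 14.99, 16.3 and 25.6 CPM after LPS, against 1.21, 1.40 and 2.51 CPM after saline (3.21 ± 0.39, adjusted p 0.000155), and Irf9, a DNA-binding subunit of the interferon-activated complex, averaged 13.6 ± 3.39 CPM after LPS and 4.91 ± 0.957 CPM after saline (1.45 ± 0.18). Zbp1, a sensor of left-handed nucleic acid, averaged 2.41 ± 0.884 CPM after LPS and 0.102 ± 0.0932 CPM after saline (ratio 24.0, interval 11.5 to 60.4). Oas3, an oligoadenylate synthetase, had 39 counts after LPS and none after saline, at least 9.92-fold higher (at least 5.29-fold without saline A226). Ifit3 averaged 45.0 ± 17.4 CPM after LPS and 6.60 ± 1.47 CPM after saline (2.74 ± 0.27), and Oasl2 12.0 ± 4.56 CPM after LPS and 1.81 ± 0.377 CPM after saline (2.69 ± 0.29).

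The interferon-inducible GTPases, which attack vacuoles of intracellular microbes, were higher but uneven among LPS libraries. Of 17 tested of 20 listed GBP and IRG genes 15 rose and none fell (16 in the reduced set; median 2.53). Gbp5 was at 10.5, 19.0, 4.77 and 8.27 CPM in LPS A258, A259, A260 and A261, against 1.26, 0.789 and 1.505 CPM after saline (3.10 ± 0.66, adjusted p 0.0132), and Gbp4 at 7.31, 19.8, 2.16 and 4.81 CPM, against 0.352, 0.546 and 0.533 CPM (4.12 ± 1.12, adjusted p 0.0476). The libraries labelled A260 and A261 were the lowest of the 4 for both. In the reduced set the SE shrank and the adjusted p was 2.74e-05 for Gbp5 and 5.87e-05 for Gbp4. The Gbp5, Gbp2 and Iigp1 calls were lost without any 1 saline library (adjusted p up to 0.0825), and those of Gbp4 and Tgtp1 without any 1 library other than A260 (up to 0.186). The list count was 8 without saline A224 and 8 without saline A226.

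MHC class I and immunoproteasome genes, which present peptides to CD8 T cells, were mostly higher. Of 20 tested 15 rose and none fell (14 in the reduced set; median 0.70). Nlrc5, the transactivator of these genes, averaged 1.82 ± 0.479 CPM after LPS and 0.262 ± 0.0540 CPM after saline (2.76 ± 0.36, adjusted p 6.18e-05). Tap1, the peptide transporter, was at 6.85, 7.26, 6.92 and 8.18 CPM after LPS, against 2.41, 1.46 and 1.88 CPM after saline (1.92 ± 0.20, adjusted p 6e-06). Psmb8, an immunoproteasome subunit, averaged 4.34 ± 1.02 CPM after LPS and 1.28 ± 0.424 CPM after saline (1.79 ± 0.22). H2-Q4, a class I chain whose reads may be shared with its close copies H2-Q6 and H2-Q7, averaged 7.36 ± 1.03 CPM after LPS and 1.78 ± 0.337 CPM after saline (2.02 ± 0.23).

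**Figure D4:**
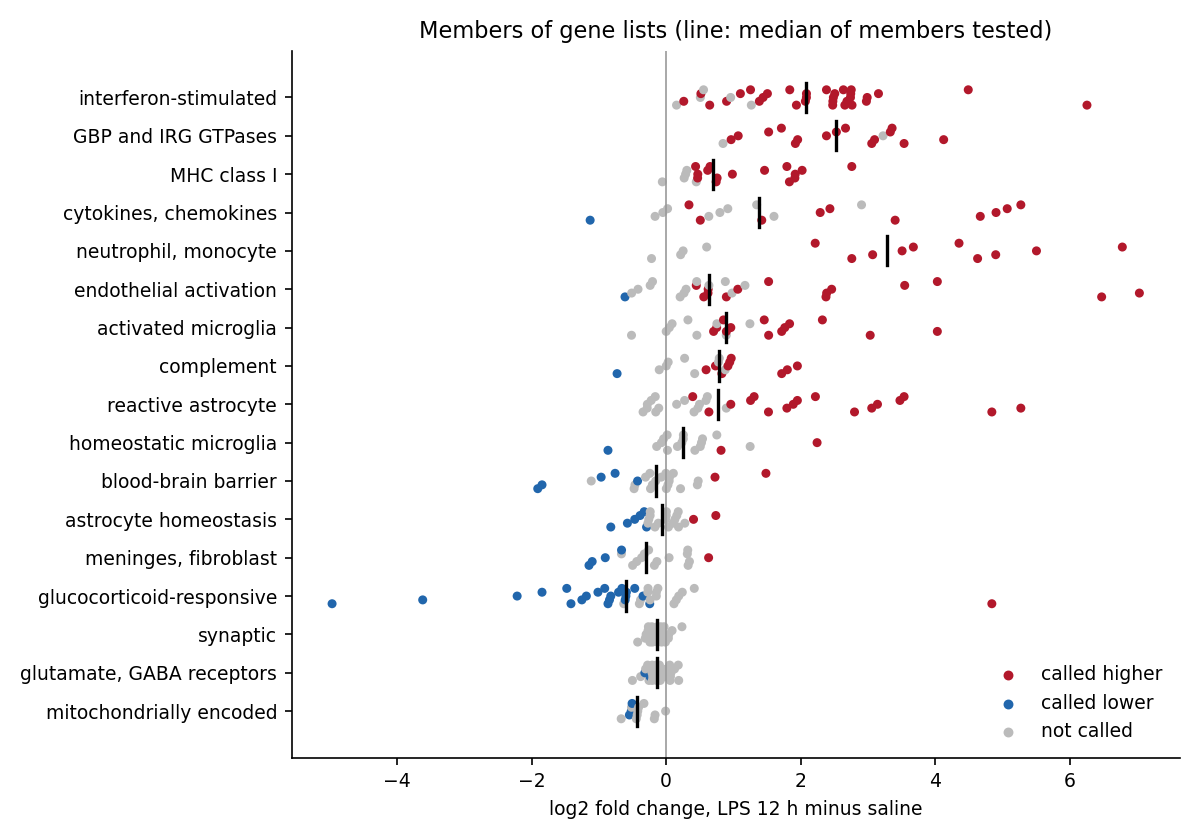
Log2 fold change of LPS 12 h over saline (horizontal axis) for every tested member of 17 gene lists (vertical axis), with members called higher in red, lower in blue and not called in grey, and a black line at each list's median. Interferon-stimulated genes have a median of 2.09 and glucocorticoid-responsive genes of -0.59.

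Complement genes rose in part: of 18 tested of 20 listed 9 rose and 1 fell (6 and 0 in the reduced set; median 0.78). C4b, a component of the classical pathway made by astrocytes and oligodendrocytes, was at 32.6, 40.9, 42.5 and 45.1 CPM after LPS, against 20.01, 21.3 and 21.3 CPM after saline (0.95 ± 0.10, adjusted p 4.09e-06). C1qb, a chain of the C1q complex of microglia, averaged 70.7 ± 19.6 CPM after LPS and 36.2 ± 1.13 CPM after saline (0.97 ± 0.21, adjusted p 0.0125), a call lost without saline A226 (0.0654) and in the reduced set (0.60, adjusted p 0.0791). The complement count was 4 without saline A223, 4 without A224, 1 without A226, 4 without LPS A260 and 5 without LPS A261.

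Most homeostatic microglial genes were not called, where 4.13% of all genes tested were higher and 2.99% lower. Of 18 tested 2 rose, Fcrls and Cx3cr1, and 1 fell, Mertk (2 and 2 in the reduced set; 4 rose with DESeq2, with library totals as the scale and in the fits of all 30 libraries; median 0.26, and -0.09 in the reduced set). Fcrls, an Fc receptor-like protein of microglia, was at 20.4, 15.5, 26.9 and 39.4 CPM after LPS, against 5.83, 2.67 and 7.08 CPM after saline (2.24 ± 0.42, adjusted p 0.0063). Mertk, a receptor for the uptake of dying cells, was at 35.5, 37.0, 26.4 and 29.5 CPM after LPS, against 65.3, 53.1 and 56.9 CPM after saline (-0.86 ± 0.10, adjusted p 2.87e-05). Cx3cr1, the fractalkine receptor, rose by 0.82 ± 0.16 (adjusted p 0.00288), but by 0.65 with an adjusted p of 0.105 in the reduced set. P2ry12 averaged 19.2 ± 12.6 CPM after LPS and 13.2 ± 4.61 CPM after saline, with overlapping groups and no call (0.53 ± 0.55, adjusted p 0.653). The 4 defining markers of microglia, of which 1 rose, summed to 121, 119, 165 and 213 CPM in LPS A258, A259, A260 and A261, against 111, 80.2 and 113 CPM after saline. The libraries labelled A260 and A261 had the highest sums, and A258 and A259 lay just above the highest saline value; the part of this sum in the microglial and complement results was not tested.

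Of 22 tested of 24 listed genes of activated microglia and macrophages 13 rose and none fell (10 in the reduced set; median 0.89, members from -0.51 to 4.03). Fcgr1, the high-affinity IgG receptor, was at 8.05, 7.496, 8.98 and 12.4 CPM after LPS, against 1.86, 1.64 and 1.97 CPM after saline (2.32 ± 0.19, adjusted p 3.07e-07). Ch25h, cholesterol 25-hydroxylase, was at 4.88, 4.32, 4.61 and 2.92 CPM after LPS, against 0.251, 0.304 and 0.219 CPM after saline (ratio 16.7, interval 10.3 to 29.0; 4.03 ± 0.54). Fcgr4 rose by 1.83 ± 0.25 and Cd52, a small surface glycoprotein of leukocytes, by 1.76 ± 0.27. Msr1, a scavenger receptor, was at 4.60, 5.77, 1.45 and 1.56 CPM in LPS A258, A259, A260 and A261, against 0.402, 0.668 and 0.251 CPM after saline (3.03 ± 0.81, adjusted p 0.0407). Its call was lost without any 1 saline library or LPS A258 or A259 (up to 0.216), and its adjusted p was 7.12e-05 in the reduced set.

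Genes of border macrophages, which line vessels and meninges, split in direction: of 14 tested of 15 listed 3 rose and 4 fell, in the reduced set also 3 and 4. Over all genes tested 4.13% were higher and 2.99% lower. Cd163, the haemoglobin scavenger receptor, was at 0.821, 1.297, 1.35 and 1.19 CPM after LPS, against 3.32, 3.95 and 2.10 CPM after saline (-1.40 ± 0.23, adjusted p 0.000588). Lyve1, a hyaluronan receptor, fell by 1.34 ± 0.26 and F13a1, the A chain of coagulation factor XIII, by 1.43 ± 0.20. Ms4a7 rose by 2.58 ± 0.43 and Clec4n, a C-type lectin, by 2.21 ± 0.48. Cd74, the invariant chain of MHC class II, rose by 1.01 ± 0.23 (adjusted p 0.00801). Of 3 defining markers of these cells 2 fell, and their summed level was 4.10 to 6.58 CPM after LPS, against 8.35 to 8.68 CPM after saline.

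Of 14 tested of 17 listed neutrophil and monocyte genes 10 rose and none fell (9 in the reduced set; median 3.29). The whole list summed to 18.6 to 30.4 CPM after LPS, against 8.13 to 11.2 CPM after saline. With a stricter filter 6 members were tested and 3 rose. S100a9 was at 4.84, 4.37, 7.07 and 3.58 CPM after LPS, against 0.302, 0 and 0.0313 CPM after saline (437 and 7 counts; ratio 47.7, interval 22.9 to 119; 5.50 ± 0.50, adjusted p 2.01e-06), and S100a8, its partner in calprotectin, at 5.09, 2.88, 4.92 and 3.08 CPM after LPS, against 0.352, 0 and 0.188 CPM after saline (ratio 20.96, interval 12.1 to 39.8). Without saline A223 the ratio was 236 for S100a9 and 32.2 for S100a8, and without saline A226 that of S100a9 was 29.6. Retnlg, a secreted protein of neutrophils, was at 0.534, 0.625, 2.31 and 0.781 CPM after LPS, against 0.0503, 0 and 0.0313 CPM after saline (ratio 34.7, interval 9.34 to 291; 22.1 without LPS A260). Of 4 defining neutrophil markers 3 were tested and all 3 rose, while Ly6g was too low to test; they summed to 7.44 to 14.3 CPM after LPS, against 0 to 0.704 CPM after saline. No red cell gene of 5 tested of 8 listed, haemoglobins included, was called by edgeR (none at an unadjusted p under 0.05) or by DESeq2, and 4 defining markers of red cells summed to 584 to 908 CPM after LPS, against 618 to 974 CPM after saline. None of the 3 lymphocyte genes tested of 19 listed was called by edgeR (none at an unadjusted p under 0.05) or by DESeq2, and 1 fell in the reduced set; 16 were too low to test, Cd8a with no count at all. The 3 defining T cell markers, none of them tested, summed to 0.251 to 0.452 CPM after LPS, against 0.101 to 0.243 CPM after saline.

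Endothelial activation genes included leukocyte adhesion molecules that were almost absent after saline. Of 27 tested of 28 listed 14 rose and 1 fell (13 and 2 in the reduced set; median 0.64). Selp, P-selectin, which slows leukocytes on the vessel wall, was at 3.57, 3.36, 1.204 and 2.47 CPM after LPS, against 0, 0 and 0.0313 CPM after saline, where it had 1 count (ratio 184, interval 32.7 to 7297; at least 32.7-fold without saline A226; 7.03 ± 0.74, adjusted p 1.06e-05). Sele, E-selectin, was at 4.64, 3.70, 1.76 and 2.34 CPM after LPS, against 0.0503, 0.0607 and 0 CPM after saline, where it had 2 counts (ratio 108, interval 29.5 to 893; 163 without saline A224 and 57.3 without A226). Both had A258 and A259 above A260 and A261. Angpt2, which loosens vessel contacts, averaged 7.25 ± 2.26 CPM after LPS and 1.32 ± 0.183 CPM after saline (2.46 ± 0.44), and Adamts1, a protease of the vessel matrix, 37.0 ± 14.2 CPM after LPS and 7.03 ± 0.359 CPM after saline (2.39 ± 0.33). Endothelial defining markers summed to 133 to 167 CPM after LPS, against 119 to 139 CPM after saline.

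A few genes of the blood-brain barrier were called, in both directions. Of 25 tested 2 rose and 5 fell (2 and 6 in the reduced set; median -0.15), where 4.13% of all genes tested were higher and 2.99% lower. Mfsd2a, the transporter of omega-3 lipids that restrains vesicle traffic, was at 9.85, 10.1, 8.08 and 7.44 CPM after LPS, against 33.2, 36.7 and 26.2 CPM after saline (-1.84 ± 0.13, adjusted p 7.89e-08). Atp10a, a lipid flippase, was at 3.57, 3.22, 3.16 and 5.31 CPM after LPS, against 16.1, 10.7 and 16.1 CPM after saline (-1.91 ± 0.23, adjusted p 3.61e-05). Ly6a, an interferon-responsive surface protein of brain endothelium, averaged 57.7 ± 10.8 CPM after LPS and 20.8 ± 2.09 CPM after saline (1.48 ± 0.14, adjusted p 2.93e-06). Abcb1a, the drug efflux pump P-glycoprotein, fell by 0.76 ± 0.19 (adjusted p 0.0243), a call lost without saline A223 or A226 or LPS A258, A259 or A260 (up to 0.117). The number of barrier genes that fell was 3 without saline A223 and 3 without A226, and 1 rose without any 1 saline library or LPS A260.

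Of 18 tested meningeal and fibroblast genes 1 rose and 4 fell (2 and 3 in the reduced set; median -0.29); none rose without saline A223 or A224 or LPS A258, A259 or A261. Over all genes tested 4.13% were higher and 2.99% lower. Fmod, a collagen-binding proteoglycan, was at 12.4, 14.7, 13.2 and 11.02 CPM after LPS, against 31.3, 26.2 and 27.6 CPM after saline (-1.15 ± 0.13, adjusted p 1.77e-05). Igf2, insulin-like growth factor 2, averaged 34.9 ± 4.99 CPM after LPS and 74.9 ± 11.9 CPM after saline (-1.10 ± 0.17), and Slc6a13, a GABA transporter of the meninges, 6.18 ± 0.384 CPM after LPS and 11.6 ± 0.558 CPM after saline (-0.90 ± 0.12). Of 13 pericyte and smooth muscle genes 1 fell, where 2.99% of all genes tested were lower. It was Cspg4, an NG2 proteoglycan shared with oligodendrocyte precursors, which averaged 10.4 ± 0.480 CPM after LPS and 15.5 ± 0.145 CPM after saline (-0.57 ± 0.11, adjusted p 0.0035). The 3 defining pericyte markers, none of them called, summed to 96.6 to 110 CPM after LPS, against 79.9 to 94.2 CPM after saline. No choroid plexus gene of 14 was called by edgeR (none at an unadjusted p under 0.05) or by DESeq2 (median -1.53), and 4 defining markers of choroid plexus summed to 10.96 to 337 CPM after LPS, against 41.6 to 1033 CPM after saline.

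Among astrocyte genes, those of the reactive state were higher in part and some of homeostasis were lower. Of 32 tested of 33 reactive astrocyte genes 17 rose and none fell (19 in the reduced set; median 0.77; 11 without saline A223 and 10 without A226). Gfap, their intermediate filament, was at 295, 396, 285 and 253 CPM after LPS, against 128, 112 and 132 CPM after saline (1.31 ± 0.15, adjusted p 4.72e-05). Several members, among them Lcn2, Cxcl10, Gbp2 and Iigp1, are shared with the lists above. Of 24 astrocyte homeostasis genes 2 rose and 6 fell (1 and 5 in the reduced set; median -0.06), where 4.13% of all genes tested were higher and 2.99% lower. The number that rose was 1 without saline A224 or LPS A259 or A261, and the number that fell was 3 without saline A223, 4 without A226 and 4 without LPS A260. Gjb6, connexin 30 of astrocyte gap junctions, was at 55.7, 53.3, 58.4 and 52.5 CPM after LPS, against 99.997, 98.8 and 92.9 CPM after saline (-0.82 ± 0.06, adjusted p 7.89e-08). Glul, glutamine synthetase, averaged 1427 ± 79.4 CPM after LPS and 1971 ± 83.1 CPM after saline (-0.47 ± 0.06, adjusted p 6.66e-05), and Fgfr3, a growth factor receptor, 96.2 ± 12.1 CPM after LPS and 143 ± 10.4 CPM after saline (-0.58 ± 0.10). Slc7a11, the cystine-glutamate exchanger, rose by 0.74 ± 0.11 (adjusted p 0.000163).

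Oligodendrocyte genes were mixed. Of 22 myelin genes 5 rose and 4 fell (3 and 4 in the reduced set), where 4.13% of all genes tested were higher and 2.99% lower. Hapln2, a link protein of the node of Ranvier, averaged 17.8 ± 3.41 CPM after LPS and 32.6 ± 5.26 CPM after saline (-0.87 ± 0.16, adjusted p 0.00263). The number that rose was 2 without any 1 saline library or LPS A261, and 9 with library totals as the scale. Of 12 precursor genes 2 fell (4 in the reduced set, 1 without saline A223 or A224, 3 without LPS A260), Cspg4 and Pdgfra, the receptor that defines these cells, which averaged 32.0 ± 3.89 CPM after LPS and 42.9 ± 2.45 CPM after saline (-0.42 ± 0.10, adjusted p 0.0143; lost without saline A223 or A224, up to 0.069). Of 17 tested of 20 proliferation genes 2 rose, the replication helicase subunits Mcm3 and Mcm6, but only Mcm6 in the reduced set. Over all genes tested 4.13% were higher. Mcm3 lost its call without saline A224 (adjusted p 0.0537), and Mcm6 without saline A223 or A226 or LPS A261 (up to 0.0528).

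Many glucocorticoid-responsive genes were lower. All 36 listed were tested: 21 fell, 14 were not called and 1 rose (17 fell and 1 rose in the reduced set), where 2.99% of all genes tested fell. The median log2 fold change was -0.59, against 0.01 for all genes; the gene that rose was Lcn2. Plin4 and Hif3a, given above, led the list. Fkbp5, a co-chaperone that damps the glucocorticoid receptor (chr17:28399094-28517527), was at 39.0, 36.6, 39.8 and 28.3 CPM after LPS, against 100.2, 118 and 81.7 CPM after saline (-1.48 ± 0.14, adjusted p 3.63e-06). Sgk1, a serum- and glucocorticoid-regulated kinase, was at 47.7, 45.2, 62.7 and 49.4 CPM after LPS, against 85.3, 199.5 and 125 CPM after saline (-1.41 ± 0.22, adjusted p 0.00129). In each of these genes no LPS library reached a saline value, which was a condition for being picked among the largest falls.

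Other falls of similar size were not all on that list. Prom1, prominin 1, a membrane protein of protrusions, was at 6.44, 7.64, 6.57 and 6.58 CPM after LPS, against 22.8, 18.3 and 18.7 CPM after saline (-1.55 ± 0.12, adjusted p 1.14e-07). Wipf3, an actin regulator, averaged 96.0 ± 13.9 CPM after LPS and 247 ± 25.8 CPM after saline (-1.37 ± 0.12, adjusted p 6.94e-07). Ddc, the decarboxylase that makes dopamine and serotonin, averaged 6.46 ± 0.889 CPM after LPS and 17.7 ± 5.31 CPM after saline (-1.44 ± 0.18). Nr3c1, the glucocorticoid receptor itself, averaged 116 ± 4.73 CPM after LPS and 97.9 ± 14.03 CPM after saline and was not called (0.24 ± 0.11, adjusted p 0.216).

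In neuronal lists most calls were of lower genes, where 2.99% of all genes tested were lower and 4.13% higher. This did not hold in the reduced set, where no gene of these lists fell, and 1 neuropeptide and 1 cortical excitatory gene rose. None of 30 synaptic genes was called by edgeR (unadjusted p under 0.05 for 1 with a higher and 7 with a lower level; median -0.13), while DESeq2 called 1 lower, 3 fell without LPS A259, and 5 fell and 1 rose in a fit of all 30 libraries. Of 31 glutamate and GABA receptor genes 2 fell, the AMPA receptor subunits Gria1 (-0.32 ± 0.07, adjusted p 0.00619) and Gria2 (-0.24 ± 0.07, adjusted p 0.0339), and neither passed in the reduced set (0.0705 and 0.191). The number of these receptor genes that fell was 5 with DESeq2, 4 with limma-voom, 6 in the fits of all 30 libraries with or without mouse as a random effect, 4 without LPS A258 and 5 without LPS A259. Gria2 was also lost without saline A223 or A224 or LPS A260 (up to 0.158), and with library totals as the scale. Of 20 neuropeptide genes 2 fell, Adcyap1, which encodes PACAP, and Scg2 (1 rose and none fell in the reduced set). Adcyap1 was at -0.57 ± 0.12 (adjusted p 0.00465, and 0.0526 in the reduced set). Scg2 was at -0.29 ± 0.09 (adjusted p 0.0476). Its call was lost without saline A223 or A224 or LPS A258 or A260. It was also lost in the reduced set and with library totals as the scale. Of 16 interneuron genes 1 fell, Lamp5 (lost without saline A223 or A226, adjusted p up to 0.0793, and in the reduced set), and of 23 tested cortical excitatory genes 1 rose and 2 fell (1 and 0 in the reduced set; none rose without saline A223 or A224 or LPS A258, none fell without saline A223 or A226, and 4 fell with limma-voom). The number of interneuron genes that fell was 3 with DESeq2 or limma-voom, 4 in the fits of all 30 libraries and 3 without LPS A259. Inhibitory neuron markers summed to 648 to 722 CPM after LPS, against 735 to 879 CPM after saline. No gene of 14 tested striatal and hippocampal markers was called by edgeR (none at an unadjusted p under 0.05) or by DESeq2, and 5 striatal markers summed to 248 to 330 CPM after LPS, against 169 to 688 CPM after saline.

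Ache, acetylcholinesterase, the target of DFP, was at 40.3, 48.1, 62.9 and 48.3 CPM after LPS, against 43.2, 55.6 and 44.4 CPM after saline, with overlapping groups (0.07 ± 0.13, adjusted p 0.831). Of 15 tested cholinergic genes 2 fell, where 2.99% of all genes tested were lower. These were the muscarinic receptors Chrm1 (-0.30 ± 0.09) and Chrm2 (-0.36 ± 0.10), both at an adjusted p of 0.0372, and neither in the reduced set (0.389 and 0.216). Chrm1 was lost without any 1 saline library or LPS A260 or A261 (up to 0.152), and Chrm2 without saline A226, where it was at -0.19 with an adjusted p of 0.371, or LPS A260 or A261.

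Immediate early genes, which follow neuronal firing and stress, gave 2 rises and 1 fall among 25, also in the reduced set. Without saline A224 1 rose and none fell. Over all genes tested 4.13% were higher and 2.99% lower. Among the rises, Atf3, a stress-induced repressor, averaged 1.74 ± 0.564 CPM after LPS and 0.354 ± 0.0520 CPM after saline (2.25 ± 0.44, adjusted p 0.00293). Of 23 circadian genes 3 rose and 3 fell (1 and 0 in the reduced set; 1 rose without saline A223 or A226, none fell without A223). Dbp, a clock output factor, was at 72.4, 65.9, 76.2 and 64.4 CPM after LPS, against 44.2, 50.02 and 46.3 CPM after saline (0.57 ± 0.07, adjusted p 6.18e-05). Per1, a core clock gene, overlapped between groups (-0.14 ± 0.17, adjusted p 0.699). For clock genes the hour of collection moves with the groups and its part was not tested.

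Mitochondrially encoded genes were lower in 3 of 13, where 2.99% of all genes tested were lower. These were mt-Co1, mt-Cytb and mt-Nd4, by 0.51 to 0.55 on the log2 scale, and the list median was -0.43. The number lower was 0 in the reduced set, without saline A223 and with no filter on low counts, 8 with DESeq2, and 10 with limma-voom and in the fits of all 30 libraries with or without mouse as a random effect. mt-Co1 was at 15843, 20016, 14990 and 17719 CPM after LPS, against 26503, 23728 and 23414 CPM after saline, with no overlap (-0.52 ± 0.13, adjusted p 0.0251; up to 0.119 with 1 library left out). Without LPS A259 7 of the 13 fell, and without saline A226 or LPS A258 or A260 1 did. None of 24 nuclear genes of oxidative phosphorylation was called by edgeR (1 lower at an unadjusted p under 0.05; median 0.06), and DESeq2 called 1 lower. Of 25 heat shock and ER chaperone genes 1 rose, where 4.13% of all genes tested were higher. It was Xbp1, the transcription factor of the unfolded protein response (0.47 ± 0.12, adjusted p 0.0224). None rose without any 1 saline library or LPS A258 or A261, 6 without LPS A260 and 11 in the reduced set. Sdf2l1, an ER protein, was at 23.2, 15.7, 9.68 and 19.6 CPM after LPS, against 9.40, 10.7 and 9.59 CPM after saline, with A260 alone among the saline values.

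Redox, lipid and epigenetic lists each held a few calls, where 4.13% of all genes tested were higher and 2.99% lower. Of 22 tested oxidative stress genes 4 rose and 2 fell (2 and 2 in the reduced set; 7 rose in the fits of all 30 libraries; 2 rose without saline A226, none fell without A223 or A224); Cyba, a subunit of NADPH oxidase, averaged 9.59 ± 1.79 CPM after LPS and 4.77 ± 0.278 CPM after saline (1.02 ± 0.14, adjusted p 0.000121). Of 23 sterol genes Ch25h rose and Fdft1, squalene synthase, fell (-0.45 ± 0.06, adjusted p 0.000177). Of 15 tested prostaglandin genes 3 rose and 2 fell (2 and 3 in the reduced set; 1 rose without saline A223 and 1 fell without A224). Pla2g4a, the cytosolic phospholipase that frees arachidonic acid, averaged 5.51 ± 1.17 CPM after LPS and 2.43 ± 0.323 CPM after saline (1.17 ± 0.16, adjusted p 0.000121). Of 15 DNA methylation genes 2 rose, Uhrf1 and Gadd45a, with adjusted p of 0.0381 and 0.0215, neither of them in the reduced set; Uhrf1 lost its call without any 1 saline library or LPS A260 or A261 (up to 0.172) and Gadd45a without saline A223 or A226 or LPS A259 (up to 0.11).

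Set beside frontal cortex at 6 h after LPS, 105 genes were higher and 105 lower at 12 h (0.614% each). Of the 707 genes higher at 12 h than after saline, 81 were also higher at 12 h than at 6 h and 5 lower, and of the 512 lower genes 65 were lower and none higher; both comparisons use the same 12 h libraries. In the reduced set 20 genes were higher and 17 lower. With 1 library left out, higher genes numbered 47 without LPS 6 h A240, 66 without A241, 66 without A242, 52 without A243, 165 without LPS 12 h A258, 57 without A260 and 48 without A261, and lower genes 40 to 126. Library totals alone as the scale gave 219 higher and 89 lower.

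Cxcl10 stood at a mean of 0.112 CPM after saline, 1.52 CPM at 6 h, 4.72 CPM at 12 h and 3.38 CPM at 24 h, and was higher at 12 h than at 6 h (1.63 ± 0.28, adjusted p 0.00792). C4b stood at 20.9, 23.4, 40.3 and 40.2 CPM in the same order (12 h over 6 h 0.78 ± 0.09, adjusted p 8.71e-05), and Adamts9 at 1.301, 6.61, 14.97 and 12.6 CPM (1.17 ± 0.22, adjusted p 0.0159). Selp went the other way, with 0.0104, 5.88, 2.65 and 2.27 CPM (-1.14 ± 0.27, adjusted p 0.0484). Il1b, at 0.417, 6.07, 2.04 and 1.65 CPM, and Lcn2, at 0.276, 18.7, 8.48 and 8.14 CPM, had lower means at 12 h than at 6 h but did not pass (adjusted p 0.0891 and 0.0935). Mfsd2a stood at 32.0, 21.1, 8.88 and 8.68 CPM (-1.25 ± 0.13, adjusted p 4.44e-05), Plin4 at 55.8, 10.8, 1.80 and 1.49 CPM (-2.59 ± 0.30, adjusted p 0.000507) and Gjb6 at 97.2, 78.8, 55.0 and 50.9 CPM (-0.52 ± 0.06, adjusted p 6.02e-05). Hif3a, at 11.3, 1.34, 0.919 and 0.885 CPM, did not differ by test between 12 h and 6 h (adjusted p 0.398). The 12 h and 24 h means each include libraries that went against their labels. Near-equal means at 12 h and 24 h therefore do not show that a level was held. For these genes the changes between times were not examined in the reduced set.

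**Figure D5:**
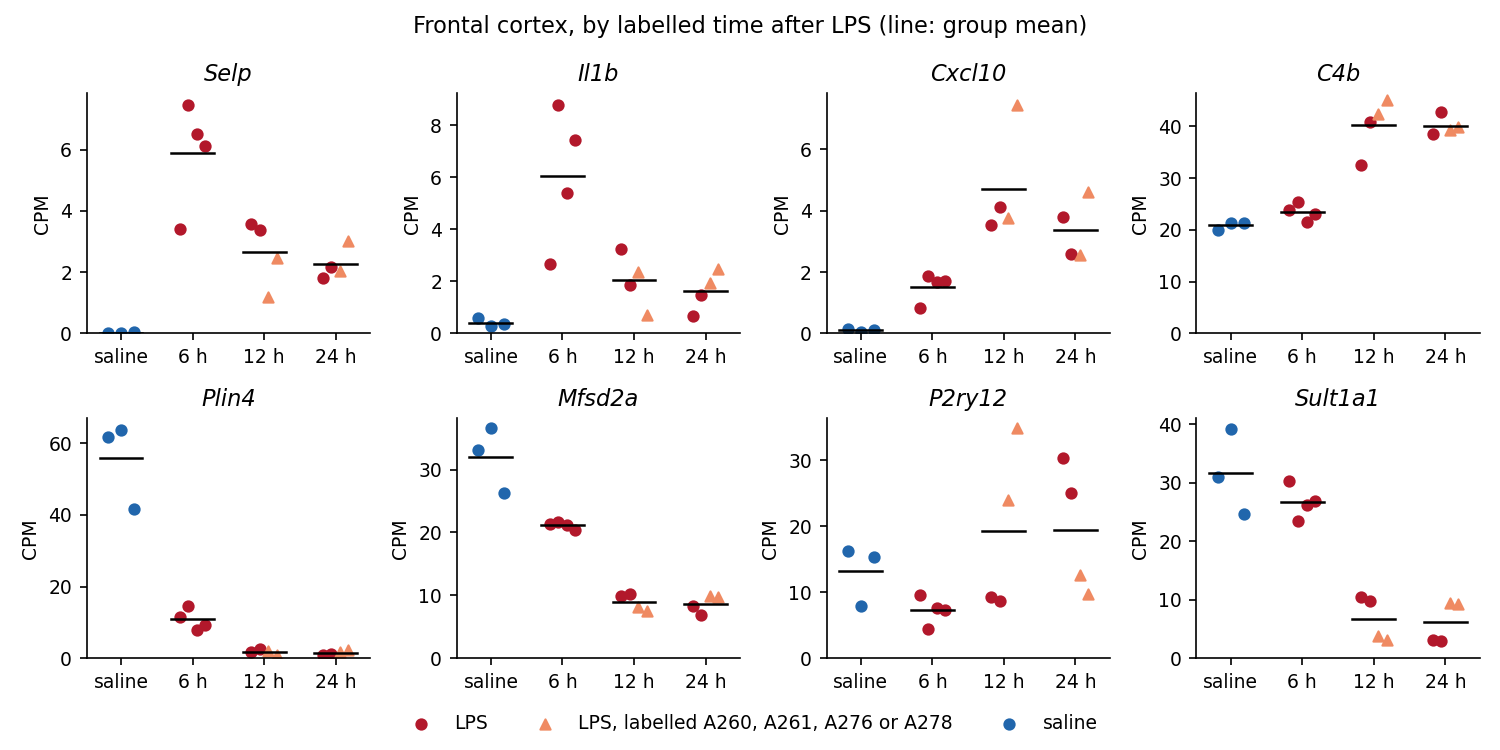
CPM of 8 genes in each frontal cortex library (vertical axes) by labelled group (horizontal axes: saline, then LPS 6 h, 12 h and 24 h), with group means as lines and the libraries labelled A260, A261, A276 and A278 as triangles. P2ry12 and Sult1a1 separate the triangles from the circles at both 12 h and 24 h, whereas Plin4 and Mfsd2a are low in all 8 libraries.

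Against LPS 24 h no gene was called by edgeR in either direction: 24 h over 12 h gave 0 higher (0%) and 0 lower (0%), with 161 and 149 genes whose unadjusted p was under 0.05, and no other tool was run on this comparison. With the 4 libraries that went against their labels left out, 16 genes were higher and 12 lower at 24 h, from 2 libraries against 2, whose spread is assumed to be like that of the other groups.

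In a fit of all 30 libraries, 10 genes had a more positive log2 fold change in frontal cortex than in hippocampus at 12 h (0.0567% of 17650 tested) and 7 a more negative one (0.0397%); the reduced set gave 7 and 6. By their labels 14 of 16 mice gave both tissues, and with mouse as a fixed effect 2 genes had a more positive and 6 a more negative change. Of the 12 genes named here by rule, all had a difference of the same sign in that fit, but 3, Coch, Camk4 and Fbxo7, passed. Differences of single genes were not examined in the reduced set. The part of the libraries labelled LPS 12 h A260 and A261 in them was not tested. Cyth4, a guanine exchange factor of myeloid cells, averaged 13.9 ± 2.50 CPM after LPS and 6.01 ± 0.606 CPM after saline in cortex, against 18.4 ± 1.201 CPM after LPS and 13.8 ± 0.489 CPM after saline in hippocampus (difference 0.79 ± 0.16, adjusted p 0.0427; 0.124 with mouse as a fixed effect). Rprm, a cell cycle arrest protein, rose by 0.41 in cortex and fell by 0.54 in hippocampus (difference 0.95 ± 0.15, adjusted p 0.00546; 0.203 with mouse as a fixed effect). Fbxo7, part of a ubiquitin ligase, averaged 35.5 ± 2.91 CPM after LPS and 58.1 ± 2.39 CPM after saline in cortex, against 31.2 ± 1.38 CPM after LPS and 34.4 ± 2.47 CPM after saline in hippocampus (difference -0.57 ± 0.10, adjusted p 0.0072; 0.0328 with mouse as a fixed effect). Ier3, an early response gene of NF-kB, rose in both tissues, by 0.73 in cortex and 1.57 in hippocampus (difference -0.84 ± 0.16, adjusted p 0.0296; 0.131 with mouse as a fixed effect). Adamts9 lay just outside the threshold (difference 2.12 ± 0.44, adjusted p 0.0502). With 1 library of either tissue left out, 2 to 10 genes had a more positive and 0 to 25 a more negative change in cortex, the fewest without cortical saline A223 and the most of the negative ones without cortical LPS A259.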

How the data were processed

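RNA was extracted from frontal cortex and hippocampus, and poly(A)-selected stranded libraries were read as 150 base pairs from both ends, per the labels' protocols. The values are the raw counts per gene that the authors deposited, in 1 table of 30 libraries with Ensembl gene identifiers; the submitters' processing notes name FastQC, Trim Galore 0.4.1, STAR 2.6.0a and DESeq2 with GRCm38 and mm10. No source used here names the program that counted reads or its strand setting, so reads shared by near-identical copies, overlapping genes or antisense partners are uncertain. Of 48820 identifiers 98.6% were matched to symbols, and at most 0.249% of the counts in any frontal cortex library lay under identifiers without one.

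Counts were tested with edgeR 4.0.16 in R 4.3.3. The fit held all 15 frontal cortex libraries (filterByExpr, TMM scaling, robust glmQLFit and glmQLFTest), so that the 4 groups shared 1 estimate of spread, and p-values were adjusted by Benjamini-Hochberg over all genes tested. CPM are TMM-scaled. The SE is the log2 fold change divided by the square root of F. A gene with at most 30 saline counts is also given as a ratio of pooled counts with its exact 95% interval, and one with 0 saline counts against a floor of 3 counts over the saline group; both cover counting error only. Differences between tissues came from a fit of all 30 libraries. Alternatives were other scalings and filters, DESeq2 1.42.0, limma 3.58.1, other sets of libraries, and each library left out; leaving out saline A224 with LPS A258, and leaving out the 4 libraries that went against their labels, were chosen after seeing the data.

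The comparison, its gene lists and tests were chosen with earlier results of these data known. Named genes are the 15 largest rises and falls of called genes whose mean reached 1 log2 CPM and whose groups do not overlap, up to 6 members of each list, 14 fixed genes, and the 6 largest differences between tissues in each direction. Mouse codes link frontal cortex and hippocampus by label, also for A260, A261, A276 and A278, whose cortical libraries were most like the hippocampus of another label. Across 13592 genes, the deviations of both tissues of a mouse had a median correlation of 0.104 (-0.0617 to 0.293), over 0.1 in 7 of 14 mice.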

Additional observations from a re-analysis of the deposited data

Results flagged for a closer look

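Of 117 named genes, 9 had 1 of the 4 LPS 12 h libraries set far from the other 3 (7.69%, where chance gives about 1 in 20). Library A261 was the high one for 4 of them: Isg15 at 14.1 CPM, against 6.44 to 7.40 CPM in the others, Cxcl10 at 7.44 CPM, against 3.53 to 4.13 CPM, Ifitm3 at 55.4 CPM, against 39.9 to 41.9 CPM, and Abcb1a at 24.3 CPM, against 16.1 to 17.4 CPM. Library A260 was high for Retnlg at 2.31 CPM, against 0.534 to 0.781 CPM, and for Pdgfra at 37.8 CPM, against 29.6 to 30.5 CPM. Library A258 was high for Ttr at 320.0 CPM, against 7.16 to 17.7 CPM, and low for Oas3 at 0.0821 CPM, against 0.529 to 0.617 CPM. Library A259 was high for Prom1 at 7.64 CPM, against 6.44 to 6.58 CPM.

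The change after LPS differed between frontal cortex and hippocampus by the test of the difference itself for 12 named genes. The log2 fold change was more positive in frontal cortex by 1.41 for Klk8, 1.32 for Zap70, 0.95 for Rprm, 0.91 for Ramp3, 0.79 for Cyth4 and 0.69 for Epop. It was more negative in frontal cortex, with differences of -1.27 for Coch, -0.93 for Plagl1, -0.84 for Ier3, -0.80 for Prss23, -0.70 for Camk4 and -0.57 for Fbxo7. Adjusted p for these 12, from edgeR, ran from 0.00546 for Rprm to 0.0487 for Klk8 and Plagl1. With mouse as a fixed effect, 3 of the 12, Coch, Camk4 and Fbxo7, passed (adjusted p 0.0363, 0.0313 and 0.0328). Cortical A260 and A261, which went against their labels, are part of these differences. Whether the 12 genes pass without them was not examined.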

How the results depend on the processing

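None of the 153 named genes called against saline reversed its direction under any alternative in which it was tested. Genes that were not called did: with 1 library left out, Ache ran from -0.07 to 0.19 on the log2 scale and Ttr from -4.83 to 0.64. The 15 largest rises and falls were picked for groups that do not overlap, so leaving out libraries could hardly reverse them. Many calls were lost: 47, 42 and 45 of the 153 without saline A223, A224 or A226. In the reduced set 36 of 152 were lost, and 48 of 153 without saline A224 and LPS A258 together. For LPS 12 h against saline, scaling by library totals alone gave 1158 higher and 316 lower genes, a fit of all 30 libraries gave 875 lower, and leaving out 1 library gave 448 to 647 higher and 302 to 566 lower. For LPS 12 h against LPS 6 h, library totals gave 219 higher, and leaving out 1 library gave 47 to 165 higher and 40 to 126 lower. Of genes whose log2 fold change differed between tissues, 10 were more positive and 7 more negative in frontal cortex. The number more negative was 3 with DESeq2 size factors, 4 with library totals and 11 without a filter, where 9 were more positive, and with 1 library left out 2 to 10 were more positive and 0 to 25 more negative (9 and 25 without cortical LPS A259). With the 4 libraries that went against their labels left out, counts were 462 higher and 273 lower against saline, 20 higher and 17 lower against 6 h, and 16 higher and 12 lower at 24 h against 12 h. DESeq2 gave 785 higher and 693 lower against saline, limma-voom 942 and 724, and the 7 libraries alone 538 and 398. The causes were not tested. With mouse as a block, the random-effect fit gave 1044 higher and 949 lower genes, and the fixed-effect fit 2 genes with a more positive and 6 with a more negative change in frontal cortex. Both fits paired tissues by mouse label, also for the 4 libraries that went against their labels. Genes with a few counts after saline are limited by depth.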
